A study of Homo sapiens with 2 samples.

Results

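Growth differentiation factor 15 (GDF-15) and the activins were followed on antibody arrays incubated with conditioned medium of pancreatic cancer cells. The antibodies were taken by name from the deposited sheets, and all 4 members, GDF-15, Activin A, Activin B and Activin C, were found among 507 antibodies. By the labels, the human pancreatic cancer line Su.86.86, grown in medium with fetal bovine serum, was transfected with siNC, a control siRNA, or with siJAG1, an siRNA against the Notch ligand Jagged 1, and the medium was taken 48 h later. With 1 array per group, neither a p-value nor a standard deviation over cultures nor a test can be given, and each statement compares 2 arrays. The array held 0 antibodies to Jagged 1, so the siRNA target was not measured.

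GDF-15 and the activins are secreted dimers of the transforming growth factor beta (TGF-beta) superfamily. GDF-15, the product of GDF15, is released by many cell types under stress and is abundant in the medium of many carcinoma lines. Its receptor is GFRAL, a hindbrain relative of the GFR alpha receptors that works through the kinase RET. Activin A, B and C are homodimers of inhibin beta subunits encoded by INHBA, INHBB and INHBC. Activins A and B bind type II activin receptors, which recruit the type I receptor ALK-4 or a relative and activate Smad proteins, and follistatin and FLRG bind and neutralise them. Activin C is made mainly by the liver and is less well understood.

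The labels of both arrays are in doubt, and every direction given here rests on them. A sheet of single spots came with each sample in 2 identical copies, and its 4 signal columns carry the headings Panc1_NC, BX3_NC, Panc1_mir-124 and BX3mir-124, which are not titles of this series. Averaging each antibody's spots under Panc1_NC gave the siNC signal for 507 of 507 antibodies, and averaging them under BX3_NC gave the siJAG1 signal for 507 of 507 (tolerance 1e-06). Panc1 is the name of a different pancreatic cancer line, and neither heading names JAG1. A difference between the arrays therefore cannot be told apart from a difference between cell sources. They are called the siNC array and the siJAG1 array, after their labels only.

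Each antibody was printed as 2 spots in neighbouring rows of 1 array, so the difference within a pair shows printing and reading error only. Signals are raw scanner values in arbitrary units. Relative expression is the authors' ratio: the signal minus a baseline, divided by the positive control mean minus that baseline, which sets positive controls to 1. Solving the ratios for this baseline gave 33619 on the siNC array and 33644 on the siJAG1 array. Each equalled the lowest single spot among the 1080 spots of the matching column. It lay below the mean of the 32 spots named Blank, 34188 and 34178, which the sheets list as the negative average. Blank spots themselves would thus read 0.0240 and 0.0213 in relative expression. The positive control means were 57374 and 58664.

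GDF-15 was bright on the siNC array and at the level of blank spots on the siJAG1 array. On the siNC array its spots read 54099 and 53244, while the blank spots there ranged from 33878 to 34396. Under the siJAG1 label its spots read 34096 and 34080, inside the blank range of 33897 to 34492, and 25 of 32 blanks were at or above both. The pairs lay far apart and did not overlap. Their differences were 855 and 16 units, against 19583.5 units between the pair means.

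In relative expression GDF-15 stood at 0.844 on the siNC array, the 6th highest of 507 antibodies, and at 0.0177 on the siJAG1 array, where it ranked 468th. With readings under 0.2 set to a floor of 0.2, the level on the siJAG1 array was at least 4.22-fold lower. With the blank mean in place of the authors' baseline the bound was at least 4.20-fold. By the same rule, a difference of 1.5-fold or more with at least 0.2 on 1 array, 15 of 507 antibodies (2.96%) were lower on the siJAG1 array and 7 (1.38%) higher. The log2 ratio without the floor, -5.57, was the lowest of all 507, but it rests on a reading at the level of blanks, so its size has no meaning as a fold. As a ratio of raw signals the log2 difference was -0.65, which also passed 1.5-fold.

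**Figure D1:**
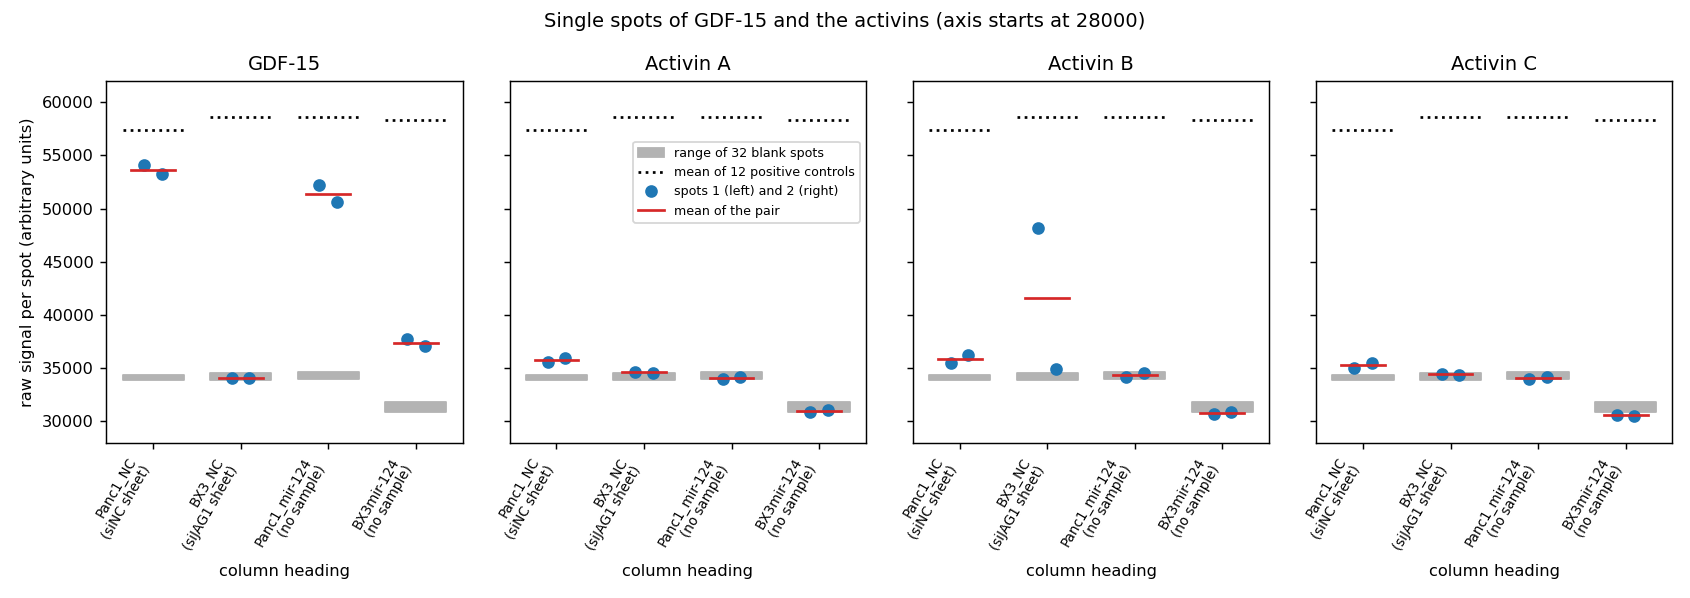
Raw signal of each single spot (arbitrary units) for the 4 members under the 4 column headings, with the pair mean (red line), the range of 32 blank spots (grey) and the mean of 12 positive controls (dotted). GDF-15 stands well above the blanks under 3 headings and inside them under BX3_NC, and Activin B has 1 bright spot of 8.

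Activin B was called higher on the siJAG1 array from its pair mean, and the call came from 1 spot. Its deposited signals were 35865 for siNC and 41567.5 for siJAG1, or 0.0945 and 0.317 in relative expression, which is at least 1.58-fold higher against the floor. On the siNC array the spots read 35481 and 36249. On the siJAG1 array they read 48198 and 34937, or 0.582 and 0.0517 in relative expression. The second of these lay below both spots of the siNC array and the first above both, so the pairs overlapped.

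That difference of 13261 units within the pair was the largest of all 507 antibodies on the siJAG1 array. The median difference there was 118 units and the 95th percentile 760.5 units, and the next largest was 8480 units, for the plasminogen activator uPA. From first spots alone the log2 ratio of Activin B was 2.89, and from second spots alone it was -1.10, the opposite direction. Where a call also required spot pairs that do not overlap, 6 antibodies (1.18%) were called higher and 15 (2.96%) lower, and Activin B was the 1 call lost. The direction of Activin B between the arrays is therefore not settled by these spots.

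**Figure D2:**
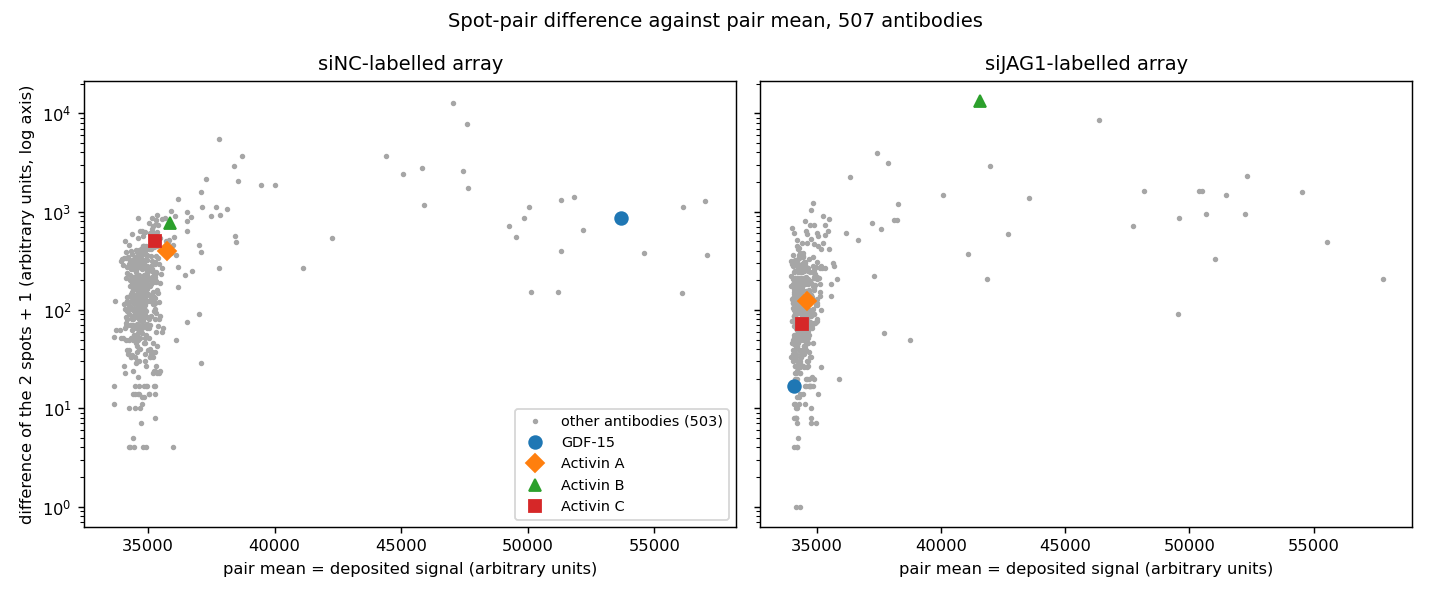
Difference between the 2 spots of each antibody plus 1 (log axis) against the pair mean (both in arbitrary units), for 507 antibodies on each labelled array. Activin B has the largest difference on the siJAG1 array, 13261 units, while the GDF-15 pairs differ by 855 and 16 units.

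The bright Activin B spot stood alone in its surroundings. In the same print row the neighbouring first spots of Activin A and Activin C read 34678 and 34451. The other 7 Activin B spots under all headings ranged from 30720 to 36249. The 5 antibodies printed around Activin B had a median signal of 34415.5 and a maximum of 34651 on the siJAG1 array.

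Activin A and Activin C stayed dim on both arrays. Activin A spots read 35539 and 35936 on the siNC array and 34678 and 34556 on the siJAG1 array. Activin C spots read 35014 and 35516, then 34451 and 34380. In relative expression this was 0.0892 and 0.0389 for Activin A and 0.0693 and 0.0308 for Activin C, all under the floor, so no fold is given. The median antibody stood at 0.0509 on the siNC array and 0.0299 on the siJAG1 array. All spots of both antibodies on the siNC array lay above the highest blank, 34396, but so did the median antibody signal, 34827. On the siJAG1 array both Activin A spots and neither Activin C spot exceeded the highest blank, 34492. The median antibody signal there was 34391.5.

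The spot pairs of Activin A and Activin C were lower on the siJAG1 array without overlap, but so were those of most of the array. In relative expression, 371 of 507 antibodies (73.2%) had pairs that were lower there without overlap and 75 (14.8%) had pairs that were higher. The shift of these activins is thus near the background of all antibodies and is not a result about them. Their unfloored log2 ratios, -1.20 and -1.17, stood beside a median of -0.78 over all antibodies.

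On the siNC array their readings also lay within a decline along the print rows, which was less regular in row 2. The activins fill print columns 6 to 8 of rows 1 and 2, followed by the antibodies to activin receptors in columns 9 to 12. On the siNC array the signals in row 1 went from 36633 for 6Ckine in column 5 through 35539, 35481 and 35014 for the activins to 34950 for Activin RIA and 34563 for Activin RIIA. In row 2 the same antibodies read 36880, then 35936, 36249 and 35516, then 35692 and 34896. Under Panc1_mir-124 the activins of row 1 read 33955, 34195 and 33968, with no such decline among them. Row 1 under BX3mir-124 did decline, from 32214 for 6Ckine through 30896, 30720 and 30617 for the activins to 30009 for Activin RIIA. A decline along these rows is thus not particular to the siNC array. The 5 antibodies printed around Activin A on the siNC array had a median of 35969.5, and Activin A minus that median was -232 units. For Activin C the median was 35321 and the difference -56 units. Neither stood above its surroundings, and the part of print position in their readings was not tested further. Activin B stood 478.5 units above the median of its surroundings on the siNC array, less than the 768 units between its own spots.

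**Figure D3:**
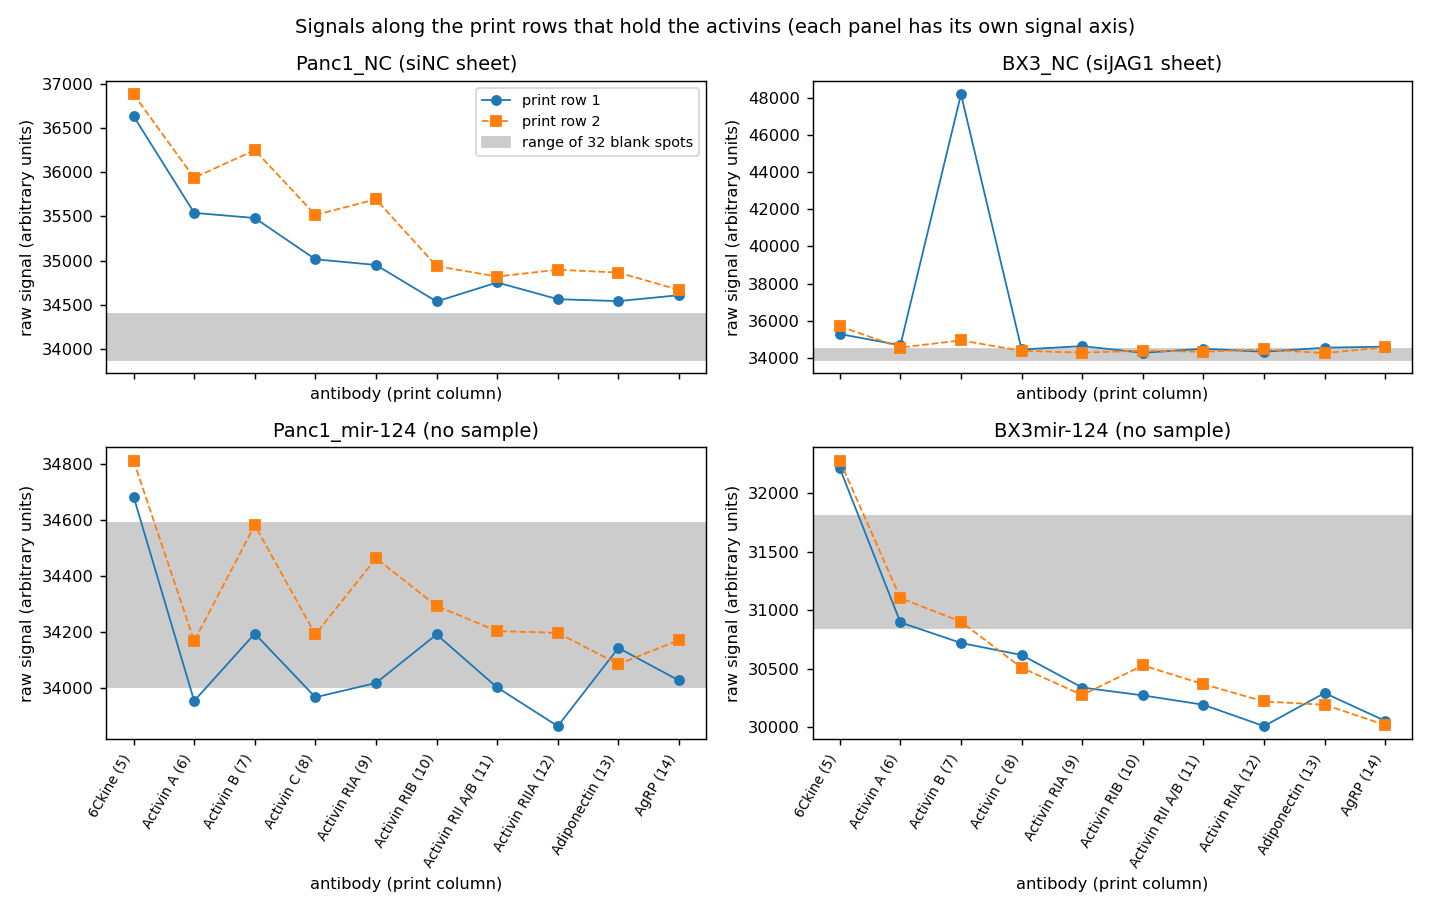
Raw signal (arbitrary units) of the spots in print rows 1 and 2 along print columns 5 to 14, for each column heading, with the range of 32 blank spots in grey. Under Panc1_NC the signal mostly declines through the activins and their receptors, from 36633 to 34563 in row 1 between columns 5 and 12, less regularly in row 2. Row 1 under BX3mir-124 declines too, from 32214 to 30009 between the same columns. Under BX3_NC the first Activin B spot alone stands out at 48198.

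GDF-15 was different in this respect. It lies in print column 1 of rows 13 and 14, and the 5 antibodies around it had medians of 34961 on the siNC array and 34145 on the siJAG1 array. It exceeded its surroundings by 18710.5 units on the former and differed from them by -57 units on the latter.

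The columns headed BX3mir-124 and Panc1_mir-124 belong to no sample of this series, and their readings are given as the authors' values. What mir-124 and NC stand for is not explained in the labels. GDF-15 spots read 52188 and 50652 under Panc1_mir-124, where blanks ranged from 34006 to 34588. Under BX3mir-124 they read 37760 and 37046, where blanks ranged from 30851 to 31808. Both pairs were thus above every blank of their column. The background was lower under BX3mir-124, with a blank mean of 31271 against 34302 under Panc1_mir-124. The positive control means were close, at 58299 and 58572.

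Because the lowest spot under BX3mir-124, 29552, lay well below its blanks, the 4 columns were set side by side with the blank mean as zero and the positive control mean as 1. On that scale GDF-15 stood at 0.840 under Panc1_NC, 0.705 under Panc1_mir-124, 0.227 under BX3mir-124 and -0.00368 under BX3_NC. The order was the same for single spots, and no pair overlapped its neighbour in that order. Pairs without overlap were common, however. From BX3_NC to BX3mir-124, 441 antibodies (87%) had lower and 43 (8.48%) higher pairs, GDF-15 among the latter. From Panc1_NC to Panc1_mir-124, 340 (67.1%) had lower and 89 (17.6%) higher pairs, GDF-15 among the former. The median difference over all antibodies was -0.034 between the BX3 headings and -0.019 between the Panc1 headings. Under BX3mir-124 the median antibody signal, 30724.5, lay below the blank mean, 31271. The share of lower pairs there thus depends on taking the blank mean as zero.

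Between BX3_NC and BX3mir-124 the GDF-15 reading was higher under the latter by 0.231, the 2nd highest of 507 differences. A difference of 0.2 or more in that direction was reached by 2 antibodies (0.394%) and in the other by 14 (2.76%). Against the floor of 0.2 the fold was at least 1.13, a bound set by the floor because the BX3_NC reading lay under it. GDF-15 was thus not called past 1.5-fold there, as 1 antibody (0.197%) was, but the size of its fold is not known. Between Panc1_NC and Panc1_mir-124 it was lower under the latter, with a difference of -0.135 and a fold of 1.19. A fold of at least 1.5 was reached by 4 antibodies (0.789%) in each direction in that comparison, and a difference of 0.2 or more by 5 higher (0.986%) and 7 lower (1.38%). With 1 array behind each heading these differences have no replicate check.

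The activins read within or below the blank range under both mir-124 headings. Under Panc1_mir-124 the Activin A, B and C spots ranged from 33955 to 34582, and none exceeded the highest blank. Under BX3mir-124 they ranged from 30508 to 31104, again with none above the highest blank. The median antibody read 34459 under Panc1_mir-124, within the blank range, and 30724.5 under BX3mir-124, below the lowest blank of 30851. Such readings are thus not particular to the activins. Activin B passed 1.5-fold between BX3_NC and BX3mir-124, lower under the latter, where 10 antibodies did (1.97%), and this call again contains the single bright spot.

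The wider TGF-beta superfamily was mostly dim. The list held 55 antibodies, and 6 of them reached 0.2 on at least 1 array, against 39 of all 507. By the 1.5-fold rule 1 was called higher on the siJAG1 array, Activin B, and 2 lower, GDF-15 and the latent TGF-beta binding protein 1, against 1.38% and 2.96% of all antibodies. The median unfloored log2 ratio was -0.66 for the list and -0.78 for all antibodies.

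Among the 24 ligands, 3 reached 0.2. These were GDF-15, Activin B and the antibody named TGF-beta 5, a name used for a frog ligand, whose human target is not known here. The TGF-beta 5 spots read 48765 and 46152 on the siNC array and 55340 and 53755 on the siJAG1 array. The pairs did not overlap, and the level was 1.43-fold higher on the siJAG1 array, short of 1.5-fold, which it passed when the arrays were divided by their median or total or quantile normalized. GDF3, an early embryonic ligand, stood at 0.149 and 0.185 with overlapping pairs. GDF1, a ligand of left-right patterning, stood at 0.0705 and 0.121. The remaining ligands, including TGF-beta 1 to 3, the bone morphogenetic proteins and GDF8 (myostatin), were all below 0.1 on both arrays. The array held 0 antibodies to inhibins, the heterodimers that share the beta subunits of activins.

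Receptors and intracellular mediators did not reach the floor. Of 12 receptor and co-receptor antibodies the highest was the type I receptor TGF-beta RI (ALK-5), at 0.0754 and 0.184 on the siNC and siJAG1 arrays. TGF-beta RIII (betaglycan), which binds inhibin and presents TGF-beta, stood at 0.122 and 0.0544. Activin RIA (ALK-2) stood at 0.0716 and 0.0324, and the co-receptor Cripto-1 at 0.0508 and 0.0428. The 5 Smad antibodies, to intracellular transducers, were between 0.0129 and 0.0333, with Smad 4 at 0.0297 and 0.0259, Smad 1 at 0.0271 and 0.0228, Smad 8 at 0.0306 and 0.0172 and Smad 7 at 0.0333 and 0.0129. The 4 GFR alpha antibodies, to relatives of the GDF-15 receptor, were between 0.0176 and 0.0524, and 0 antibodies carried the name GFRAL.

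Proteins that bind the ligands included the other bright members of the list. Latent TGF-beta binding protein 1, which anchors latent TGF-beta in the matrix, was bright on the same array as GDF-15. Its spots read 46300 and 43868 on the siNC array and 34620 and 34646 on the siJAG1 array. In relative expression this was 0.483 for siNC and 0.0395 for siJAG1, a bound of at least 2.41-fold lower under the latter that was not past 1.5-fold without background subtraction. Thrombospondin-1, which can activate latent TGF-beta, stood at 0.740 and 0.694, and was called higher on the siJAG1 array under scaling to the array median. Gremlin, a BMP antagonist, reached 0.201 on the siNC array and 0.0447 on the other. That is at least 1.01-fold lower on the siJAG1 array, a bound set by the floor. It was called lower on the siJAG1 array with a floor of 0.1 or with none. Follistatin, the activin antagonist, was dim at 0.0508 and 0.0633. Thrombospondin-2 stood at 0.0776 and 0.0822, Thrombospondin-4 at 0.0526 and 0.0718, and Cerberus 1, a BMP and Nodal antagonist, at 0.0677 and 0.0404.

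**Figure D4:**
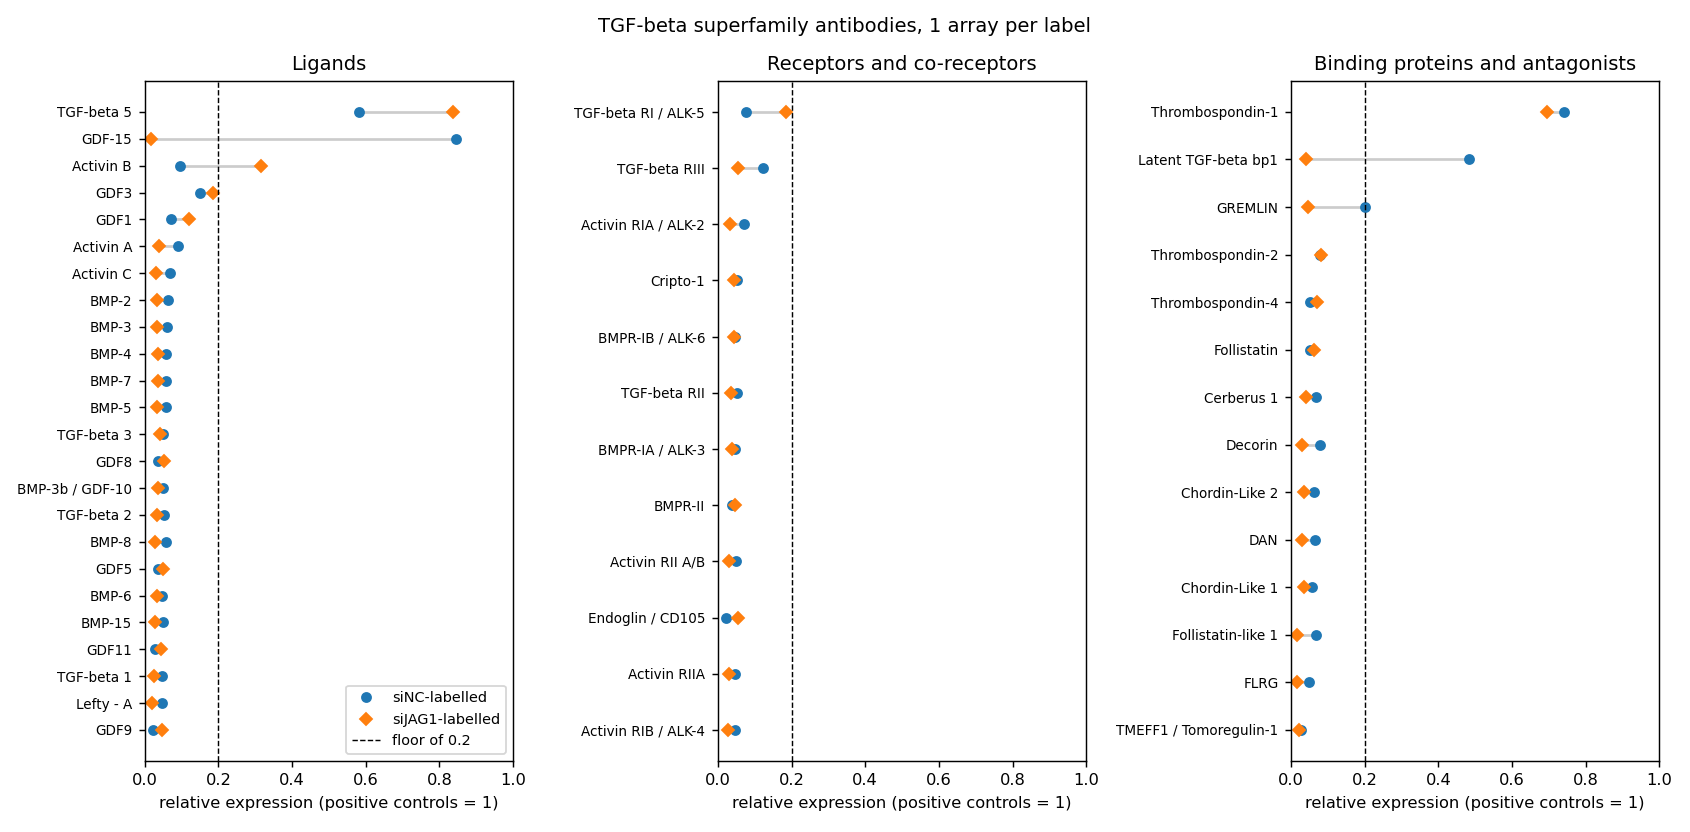
Deposited relative expression (positive controls at 1) of 24 ligands, 12 receptors and co-receptors and 14 binding proteins on the siNC array (circles) and the siJAG1 array (diamonds), with the floor of 0.2 dashed. GDF-15 has the widest gap, 0.844 against 0.0177, and most antibodies lie under 0.1 on both arrays.

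Other markers were read from lists chosen with earlier results of these data known, so reaching 0.2 cannot show a source of protein. Of all 507 antibodies, 39 reached 0.2 on at least 1 array, 15 (2.96%) were called lower and 7 (1.38%) higher. The 4 products often secreted by carcinoma lines, Lipocalin-2, uPA, TIMP-1 and IL-8, all reached 0.2 on at least 1 array. Their summed relative expression was 2.68 on the siNC array and 2.54 on the siJAG1 array, a sum over members that went both ways. IL-8, a chemokine, read 0.948 on the siNC array and 0.396 on the siJAG1 array and was called lower on the latter, as GDF-15 was. The protease uPA was also called lower, at 0.985 and 0.508. Lipocalin-2 was called higher, at 0.0620 and 0.965. Of 22 white blood cell markers 0 reached 0.2, with sums of 1.502 and 0.846, all from readings under the floor. Many of these markers are CCR and CXCR receptors of the cell surface. Their low readings in medium cannot show which cells were present. Of 8 serum proteins 3 reached 0.2, with sums of 2.04 and 1.67 over the 8. These were Thrombospondin-1, Endostatin and latent TGF-beta binding protein 1. Thrombospondin-1 and latent TGF-beta binding protein 1 also stand in the TGF-beta superfamily list. The part of serum in these readings was not tested.

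Across the 8 single spots under 4 headings, the 5 antibodies with readings most like those of GDF-15 by Pearson r were TNF RI (0.991), MMP-16 (0.965), IGFBP-7 (0.961), IL-17F (0.960) and Ubiquitin+1 (0.956). Of these, only IGFBP-7, an insulin-like growth factor binding protein, reached 0.2, at 0.987 under Panc1_NC, 0.884 under Panc1_mir-124, 0.0255 under BX3_NC and 0.0279 under BX3mir-124. It thus lacked the intermediate reading that GDF-15 had under BX3mir-124. For Activin B the 5 most alike were PDGF-AA (0.863), IL-1 F6 (0.772), L-Selectin (0.769), CTACK (0.762) and TGF-beta RI (0.746), all under 0.2 under every heading. These values describe 4 arrays, with spots of a pair sharing an array, and they follow the single bright spot in the case of Activin B. They were computed with the lowest spot of each column as baseline, not on the blank scale. With that baseline the blank mean itself read 0.0598 under BX3mir-124 and 0.0213 under BX3_NC. TNF RI read 0.0414 and 0.0258 there, so the likeness of such dim antibodies depends on the baseline. Likeness on the blank scale was not computed.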

How the data were processed

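Conditioned media were read on an array of 507 antibodies (L-507), with Cy3-coupled streptavidin, per the labels. Per the file headers, the authors deposited for each antibody a signal intensity and a relative expression, which is a ratio to positive controls. For the scanner, its software and earlier background steps, nothing was given in the sources used here. The deposited single-spot intensity sheet has 4 columns whose headings match no sample label. The pair means of 2 of them equal the deposited signals of the siNC and siJAG1 arrays for 507 of 507 antibodies, and the other 2 columns belong to no sample. Spot pairs, readings on the blank scale, folds, calls and likeness were computed from these columns. From the deposited values, ratios, floors, spot-pair differences and surroundings were computed with Python 3.11.15, pandas 2.3.3 and NumPy 2.4.6. No pseudocount was added. The main value is the deposited relative expression, with readings under 0.2 set to 0.2 for a fold. The calling step was checked on simulated sheets with known folds, which covers the arithmetic of the rule only. Those sheets held no discordant spots and no shift of the whole array. The check therefore does not show how reliable the calls in these data are. The text names the 4 members, list members at or above 0.2 and up to 4 more per role, and the 5 antibodies most alike. Antibodies in the print row of the activins are also named, by position. The members and lists were chosen with earlier results of these data known. No protein sequences are printed. Alternatives covered scaling, background, floor and single spots. The number of arrays limits the precision.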

Additional observations from a re-analysis of the deposited data

Results flagged for a closer look

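GDF-15 gave signal in 2 columns that no sample sheet uses. Its pair mean was 37403 under BX3mir-124, where the highest of 32 blank spots read 31808, and 51420 under Panc1_mir-124, where the highest blank read 34588. Both spots of each pair were above every blank by at least 5238 and 16064 units. These headings belong to no sample here, so the readings enter no comparison between groups.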

How the results depend on the processing

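Without the floor, the log2 ratio of GDF-15 was -5.57 as reported, -5.50 with no scaling, -4.80 after division by the array median, -4.99 by the total, -5.14 after quantile normalization, -0.65 as a ratio of signals and -0.69 as that ratio scaled to positive controls. It stayed past 1.5-fold and lower in all 8 settings of the count below. With the negative mean subtracted it has no value, since its signal on the siJAG1 array was under that mean. Activin B turned to -1.10 from second spots, and its call was lost without background subtraction and where pairs had to be apart. Activin A, at -1.20 as reported, moved to -0.43, -0.62 and -0.51 with median, total and quantile scaling, -0.046 and -0.078 without background subtraction, -1.82 with the negative mean subtracted and -0.97 from first spots. Activin C, at -1.17, moved in the same order to -0.40, -0.59, -0.46, -0.035, -0.067, -2.18 and -0.86. These dim ratios are readings near background and not folds. The count of antibodies past 1.5-fold was 22 as reported, 38 with a floor of 0.1, 344 with no floor and 5 without background subtraction (scaled to positive controls). Division by the median gave 15 higher and 10 lower, by the total 13 and 11 and quantile normalization 10 and 11, in place of 7 and 15. These scalings moved the median log2 ratio of all antibodies from -0.78 to -0.0087, -0.20 and -0.024. The blank-mean scale and signals scaled to positive controls were chosen after seeing the data. Where construction does not show it, the cause was not tested. No paired analysis was possible because each group holds 1 array. Leaving out a replicate was not possible for the same reason.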

Other observations

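Spots named neg behaved unlike blanks. The 16 such spots ranged from 36710 to 57830 under BX3_NC and from 35068 to 56592 under Panc1_NC, up to the level of the positive controls, whereas the negative average in the sheets equals the mean of the 32 spots named Blank. A further 6 spots named Positive were dim and are not part of the positive control mean, which rests on 12 spots. On the siNC array the largest pair differences were 12787 units for VEGF-D and 7862 units for VEGF-C, so Activin B is not the only antibody whose pair mean hides discordant spots.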
